A study of Mus musculus with 20 samples.

Results

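Chemokine receptors are G protein-coupled receptors through which leukocytes sense chemokines, the small secreted proteins that direct cell movement. Their genes followed here in mouse macrophages were Cx3cr1, Ccr1, Ccr2, Ccr3 and Cxcr4. They were taken as a named list, looked up by GeneID, and all 5 of 5 were among the 46318 genes counted and had enough counts for the test over all genes. The cells were bone marrow-derived macrophages from C57BL/6 female mice, grown with 20 ng/mL of recombinant murine M-CSF (spelled M-DSF in the labels) and seeded in 6-well plates. For 24 h they received DSHN at 50 µM together with GW3965 at 1 µM, GW3965 alone at 1 µM, DSHN alone at 50 µM, or DMSO. GW3965 is an agonist of LXR, the nuclear receptor for oxysterols, DSHN is described by the submitters as an agonist of the nuclear receptor NR0B2, and DMSO is the solvent. Each treatment has 5 libraries, called biological replicates in the labels, which do not say whether they came from separate mice. The p-values therefore measure the spread between these cultures only.

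On binding a ligand, a chemokine receptor activates G proteins of the Gi class, and the cell polarises and moves up the gradient. CX3CR1 binds the membrane-anchored chemokine CX3CL1 and marks patrolling monocytes and many tissue macrophages. CCR2 binds CCL2, CCL7 and CCL12 and draws monocytes out of the marrow, CCR1 binds CCL3, CCL5, CCL6, CCL7 and CCL9, and CCR3 is the eotaxin receptor best known from eosinophils. CXCR4 binds CXCL12 and holds leukocytes and progenitors in the marrow.

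Cx3cr1 (GeneID 13051) lies on the minus strand of chromosome 9 from 119877749 to 119897362 (GRCm39, the build of the count files). Ccr1 (GeneID 12768, minus strand, 123762163 to 123768729), Ccr3 (GeneID 12771, plus strand, 123817799 to 123831729) and Ccr2 (GeneID 12772, plus strand, 123901954 to 123913594) stand in 1 receptor cluster of chromosome 9. That cluster also holds Ccr9, Cxcr6, Xcr1 and Ccr1l1, and Ccr1l1 lies 7738 bases from Ccr1. Cxcr4 (GeneID 12767) lies on the minus strand of chromosome 1 from 128515936 to 128520036, with no other listed receptor gene within 500 kb. Cx3cr1 shares 92 exon bases with the opposite-strand gene model Gm33858, which had 63 counts over all 20 libraries, and no other member overlaps an annotated gene. The counting command names no option for strand or for reads that align to several places. Under the tool's default, reads that align to several places are left out. Counts of receptor genes with similar sequences, such as Ccr1, Ccr1l1 and Ccr3, may therefore lack reads that they share.

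The 250 bases before the annotated start are shown for the 3 genes that fell most, Ccr3, Cx3cr1 and Ccr1, and for Cxcr4, which moved the other way. They are RefSeq sequences of GRCm38.p6, written on the strand of the gene: chr9:124021721-124021970 (plus) for Ccr3, chr9:120068297-120068546 (minus) for Cx3cr1, chr9:123968693-123968942 (minus) for Ccr1 and chr1:128592300-128592549 (minus) for Cxcr4. Capitals mark matches to the motifs searched.
Ccr3: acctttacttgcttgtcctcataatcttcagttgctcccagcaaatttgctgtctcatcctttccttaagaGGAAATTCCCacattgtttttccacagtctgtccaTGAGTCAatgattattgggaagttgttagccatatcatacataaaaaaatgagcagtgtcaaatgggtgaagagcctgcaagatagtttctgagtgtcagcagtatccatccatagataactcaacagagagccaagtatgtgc
Cx3cr1: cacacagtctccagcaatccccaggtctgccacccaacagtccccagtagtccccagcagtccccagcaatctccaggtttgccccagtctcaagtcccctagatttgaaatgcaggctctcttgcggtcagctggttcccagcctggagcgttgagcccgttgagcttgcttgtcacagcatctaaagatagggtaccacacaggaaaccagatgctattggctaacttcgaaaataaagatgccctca
Ccr1: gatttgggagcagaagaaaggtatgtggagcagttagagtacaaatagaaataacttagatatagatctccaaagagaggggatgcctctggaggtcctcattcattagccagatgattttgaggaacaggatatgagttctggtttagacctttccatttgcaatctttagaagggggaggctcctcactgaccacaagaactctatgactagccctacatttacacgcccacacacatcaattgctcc
Cxcr4: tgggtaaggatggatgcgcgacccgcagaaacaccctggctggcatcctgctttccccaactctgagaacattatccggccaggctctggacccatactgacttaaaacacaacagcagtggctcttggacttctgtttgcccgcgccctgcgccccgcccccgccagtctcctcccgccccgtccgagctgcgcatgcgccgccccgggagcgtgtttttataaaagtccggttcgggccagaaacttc
In windows of 300 bases, which run 50 bases past the start, both strands were searched for AP-1 (TGANTCA), the E-box (CACGTG), the nuclear receptor core AGGTCA, the LXR element DR4 (that core repeated after a gap of 4 bases) and NF-kB (GGGA and TTTCC with any 1 base between). Ccr3 had 1 match to AP-1, whose first base lies at -144 from the start, and 1 to NF-kB at -179, and these do not overlap. The windows of Cx3cr1, Ccr1, Ccr2 and Cxcr4 held none of these letters. Of 32851 promoters in the table, 7.81% hold the AP-1 letters, 0.411% those of NF-kB, 7.15% the E-box, 16.3% the AGGTCA core and 0.0152% DR4. The start used for Ccr3 lies 4146 bases inside the gene record of that build, so it belongs to an inner transcript start. The share of G and C was 40.4% for Ccr3, 53.6% for Cx3cr1, 43.6% for Ccr1 and 61.2% for Cxcr4, against a median of 52.4% over all promoters.

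Levels are given as CPM, read counts relative to the depth of the library with TMM scaling, and where genes are compared as CPM per kb of exon. Library totals lay between 16855029 and 23796561 counts, and no pair of replicates agreed within counting error. All 12 listed macrophage markers were expressed, with a summed level of 18739 to 20443 CPM with DSHN+GW3965, 19144 to 21423 CPM with GW3965, 20627 to 22279 CPM with DSHN, and between 18617 and 19953 CPM with DMSO. The 5 DSHN+GW3965 libraries stood apart from the other 15 in how counts depended on exon length. The slope of log2 CPM on log2 exon length, after centring each gene on its mean, was -0.124 to -0.0943 in those 5 and 0.0057 to 0.063 in the other 15. Against each of the other groups the two-sided exact permutation p was 0.00794, the smallest that 5 against 5 libraries can give, and 0.00794 adjusted over 3 comparisons. The members' exon lengths were 2831 bases (Ccr1), 2876 (Cxcr4), 3491 (Ccr3), 3753 (Cx3cr1) and 4725 (Ccr2), near the median of 3758 over the 13307 tested genes. Results on DSHN+GW3965 are therefore also given with a correction for exon length where it ends or makes a call or moves a value by over 1.5 times.

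Set against DMSO, both compounds lowered the same 4 receptor genes and raised Cxcr4. GW3965 lowered Ccr3 to 0.249 of the DMSO level and Cx3cr1 to 0.320, and DSHN lowered them to 0.467 and 0.494. Under DSHN+GW3965, Ccr3 and Cx3cr1 stood at 0.263 and 0.360 of DMSO. By edgeR's quasi-likelihood test with Benjamini-Hochberg adjustment, DSHN+GW3965 changed 4 of the 5 members, beside 64.8% of all tested genes. It raised 1, where 31.9% of all genes rose, and lowered 3, where 32.9% fell. GW3965 changed all 5, beside 46.5% of all genes: 1 rose (23.6% of all genes) and 4 fell (23% of all genes). DSHN also changed all 5, beside 28.9% of all genes: 1 rose (14.1% of all genes) and 4 fell (14.8% of all genes). The count for DSHN+GW3965 is near its background, and the sizes of the changes are given gene by gene. The median log2 fold change of the 5 members was -0.77 with DSHN+GW3965, -1.28 with GW3965 and -0.61 with DSHN, beside medians of 0.01, 0.008 and 0.002 over all tested genes. These 3 comparisons share their DMSO libraries. In RNA from whole cultures, fewer cells of a kind and less RNA per cell cannot be told apart.

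**Figure D1:**
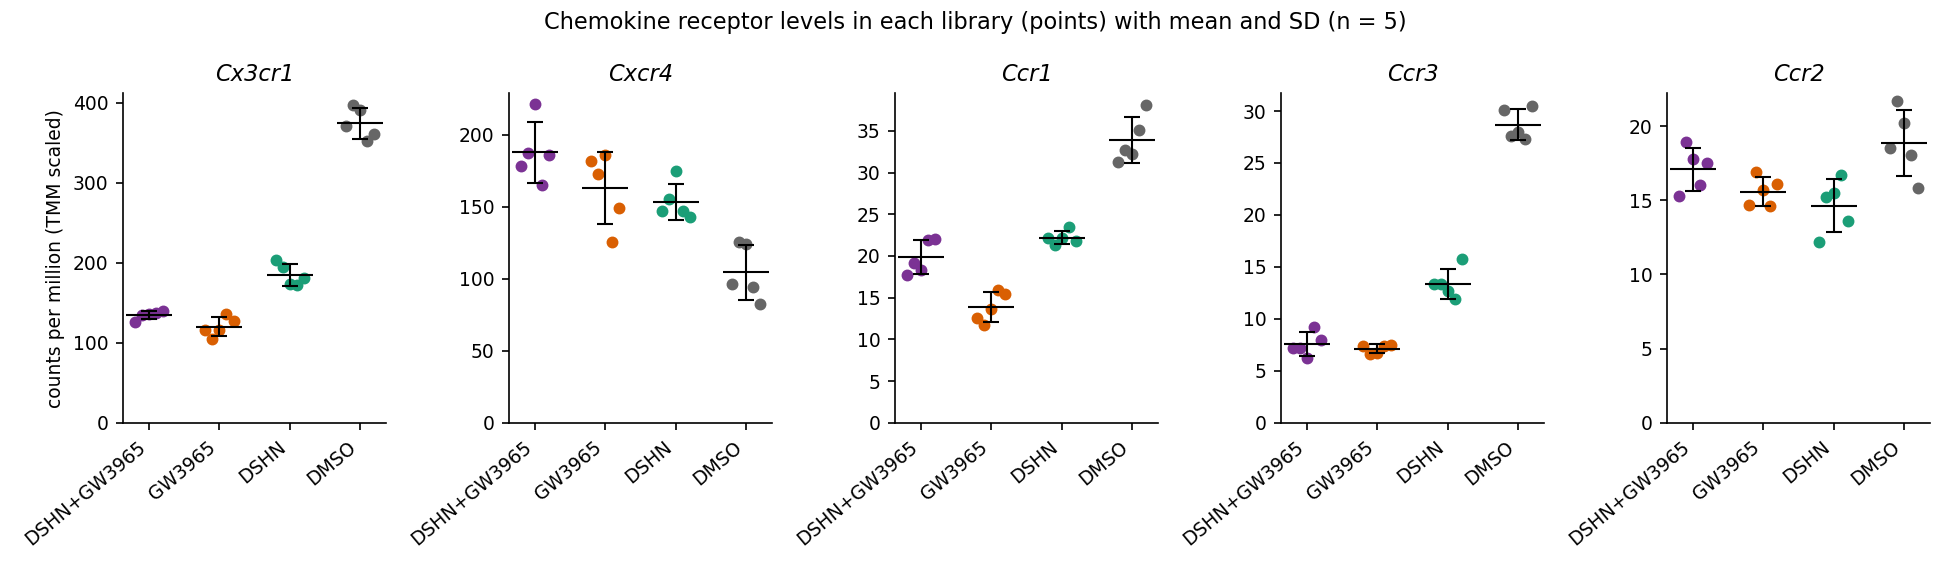
CPM of the 5 receptor genes in each of the 20 libraries, with the mean and SD of 5 libraries per treatment. The DMSO libraries lie above all others for Cx3cr1, Ccr1 and Ccr3 and below all others for Cxcr4, while for Ccr2 the groups overlap.

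Cx3cr1, the fractalkine receptor gene, had 126, 135, 136, 137 and 140 CPM with DSHN+GW3965 and 116, 104, 116, 136 and 127 CPM with GW3965. It had 204, 195, 173, 172 and 181 CPM with DSHN, against 371, 397, 391, 352 and 361 CPM with DMSO. Every treated library lay below every DMSO library, and every DSHN library above every library that had received GW3965. The mean was 135 ± 5.27 CPM with DSHN+GW3965, 120 ± 12.1 with GW3965, 185 ± 13.8 with DSHN and 375 ± 19.2 with DMSO (SD, n = 5 each). The log2 fold change against DMSO was -1.48 (SE 0.06, adjusted p = 3.36e-17) for DSHN+GW3965, -1.64 (SE 0.06, adjusted p = 2.65e-18) for GW3965 and -1.02 (SE 0.06, adjusted p = 5.06e-13) for DSHN. In size these changes exceeded those of 98.8%, 99.5% and 99.4% of all tested genes, in the same order. Between the compounds, GW3965 was lower than DSHN by a log2 fold change of -0.62 (SE 0.06).

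Ccr3 had the largest falls of the 5 genes. It had 7.22, 7.18, 6.23, 9.25 and 7.95 CPM with DSHN+GW3965 and 7.41, 6.62, 6.66, 7.43 and 7.50 CPM with GW3965. It had 13.3, 13.3, 12.6, 11.9 and 15.8 CPM with DSHN, against 30.1, 27.6, 27.96, 27.3 and 30.5 CPM with DMSO. The 3 tiers do not overlap: DMSO on top, DSHN in the middle, and the libraries with GW3965, with or without DSHN, at the bottom. Means were 7.57 ± 1.12 CPM with DSHN+GW3965, 7.13 ± 0.443 with GW3965, 13.4 ± 1.46 with DSHN and 28.7 ± 1.48 with DMSO (SD, n = 5 each), from 116 to 668 counts per library. The log2 fold change against DMSO was -1.93 (SE 0.08, adjusted p = 1.74e-16) for DSHN+GW3965, -2.01 (SE 0.08, adjusted p = 4.2e-17) for GW3965 and -1.10 (SE 0.07, adjusted p = 1.65e-11) for DSHN. GW3965 was lower than DSHN by -0.91 (SE 0.09). Of the 10 other listed eosinophil markers, 6 were at 0 in each group, and Epx, Prg3, Ear1, Ear6 and Gata1 had no count in any library. The summed level of these 10 was 3.07 to 3.36 CPM with DSHN+GW3965 and 2.66 to 3.90 CPM with GW3965. With DSHN it was 1.29 to 2.61 CPM, below the 2.79 to 3.93 CPM of the DMSO libraries. The 11 mast cell and basophil markers, with Tpsb2, Cma1 and Fcer1a at 0 throughout, summed to 2.85 to 4.03, 2.19 to 3.25, 2.52 to 2.95 and 2.46 to 5.36 CPM in the same order of groups. Though these sums overlap, 2 of the 3 tested mast cell and basophil markers, Mcpt8 and Gata2, were lower with GW3965 (-0.75 and -1.27) and with DSHN (-0.86 and -1.26). Both had a positive interaction (1.11 and 1.81), as Ccr3 had. These values rest on few counts, 27 to 88 per library for Mcpt8 and 1 to 22 for Gata2. The remaining tested marker of this list was not called with either compound alone. With DSHN+GW3965, Mcpt8 was lower (-0.49) and Gata2 was not called (-0.72, adjusted p = 0.0787). Siglecf, an eosinophil marker, was lower with DSHN+GW3965 (-0.63, SE 0.21) and with DSHN (-1.44, SE 0.22), had -0.46 (adjusted p = 0.0582) with GW3965, and had an interaction of 1.27 (SE 0.32). It averaged 1.28, 1.47, 0.736 and 2.02 CPM in the same order of groups, from 11 to 55 counts per library. The 4 tested eosinophil markers include Ccr3 and Siglecf. With DSHN+GW3965, 1 was higher and 2 lower (0 and 2 after the exon length correction). With GW3965 it was 1 and 1, and with DSHN 0 and 2. The shares of all tested genes were 31.9% higher and 32.9% lower, 23.6% and 23%, and 14.1% and 14.8%. The part of these cells in the Ccr3 result was not tested.

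Ccr1, a receptor of several inflammatory CC chemokines, had 17.7, 19.1, 18.4, 21.97 and 21.998 CPM with DSHN+GW3965 and 12.5, 11.8, 13.6, 15.9 and 15.5 CPM with GW3965. It had 22.1, 21.4, 22.2, 23.5 and 21.9 CPM with DSHN, against 31.3, 32.7, 32.3, 35.1 and 38.2 CPM with DMSO. The GW3965 libraries were the lowest and the DMSO libraries the highest, without overlap, and DSHN+GW3965 and DSHN met in between. Means were 19.8 ± 2.03 CPM with DSHN+GW3965, 13.9 ± 1.82 with GW3965, 22.2 ± 0.773 with DSHN and 33.9 ± 2.77 with DMSO (SD, n = 5 each). The log2 fold change against DMSO was -0.77 (SE 0.07, adjusted p = 7.25e-10) for DSHN+GW3965, -1.28 (SE 0.08, adjusted p = 2.88e-13) for GW3965 and -0.61 (SE 0.07, adjusted p = 3.96e-07) for DSHN. GW3965 was lower than DSHN by -0.67 (SE 0.08).

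Ccr2, the monocyte recruitment receptor gene, had 15.3, 18.9, 17.8, 16.0 and 17.5 CPM with DSHN+GW3965 and 14.7, 16.9, 15.7, 14.6 and 16.1 CPM with GW3965. It had 12.2, 15.2, 15.5, 16.7 and 13.6 CPM with DSHN, against 18.5, 21.7, 20.2, 18.0 and 15.9 CPM with DMSO. All 4 groups overlap, and DMSO replicate 5 lies among the treated libraries. Means were 17.1 ± 1.45 CPM with DSHN+GW3965, 15.6 ± 0.962 with GW3965, 14.6 ± 1.77 with DSHN and 18.9 ± 2.23 with DMSO (SD, n = 5 each). Ccr2 fell with GW3965 (log2 fold change -0.28, SE 0.08, adjusted p = 0.00669) and with DSHN (-0.38, SE 0.08, adjusted p = 0.00105). For DSHN+GW3965 against DMSO the value was -0.15 (95% confidence interval -0.32 to 0.02, adjusted p = 0.114), which was not called. Without DMSO replicate 5 it was -0.21 and called (adjusted p = 0.0263), and corrected for exon length it was -0.03. Of 12 listed monocyte markers 7 were tested. Their sum was 78.5 to 86.5 CPM with DSHN+GW3965, 90.1 to 94.995 CPM with GW3965, 97.4 to 112 CPM with DSHN, and from 108 up to 125 CPM with DMSO. Spn had 733 to 1562 counts per library, and no other listed monocyte marker had over 741. Of the 7 tested, 0 were higher and 3 lower with DSHN+GW3965, 0 and 4 with GW3965, and 1 and 2 with DSHN. Background shares over all tested genes were 31.9% higher and 32.9% lower, 23.6% and 23%, and 14.1% and 14.8%. The defining marker Ly6c2 averaged at most 0.02 CPM in any group. The part of monocyte markers in the Ccr2 and Cx3cr1 results was not tested.

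Cxcr4, the CXCL12 receptor gene, had 178, 187, 222, 166 and 186 CPM with DSHN+GW3965 and 182, 173, 186, 126 and 149 CPM with GW3965. It had 147, 155, 175, 147 and 143 CPM with DSHN, against 96.6, 126, 124, 94.5 and 82.3 CPM with DMSO. The DMSO libraries were the lowest of all 20, though DMSO replicate 2 (125.5 CPM) came close to GW3965 replicate 4 (125.7 CPM). Means were 188 ± 20.9 CPM with DSHN+GW3965, 163 ± 25.3 with GW3965, 154 ± 12.7 with DSHN and 105 ± 19.3 with DMSO (SD, n = 5 each). The log2 fold change against DMSO was 0.84 (SE 0.10, adjusted p = 8.53e-08) for DSHN+GW3965, 0.64 (SE 0.10, adjusted p = 1.46e-05) for GW3965 and 0.55 (SE 0.10, adjusted p = 0.000222) for DSHN. GW3965 and DSHN differed by 0.09 (95% confidence interval -0.13 to 0.30, adjusted p = 0.652). Lists of other cells that can carry this receptor were followed beside it. The 7 B cell markers, with Pax5 at 0 throughout and Blnk the most abundant, summed to 202 to 262 CPM with DSHN+GW3965, 192 to 242 CPM with GW3965, 205 to 228 CPM with DSHN, and between 143 and 183 CPM with DMSO. The 11 neutrophil markers summed to 68.1 to 75.3, 47.6 to 65.1, 79.4 to 96.7 and 44.8 to 55.9 CPM in the same order, nearly all of it from Mmp8 and Csf3r. Of the 3 tested neutrophil markers, 2 were higher and 0 lower with DSHN+GW3965, 1 was higher and 2 lower with GW3965, and 2 were higher and 0 lower with DSHN. The 11 T and NK cell markers summed to 8.40 to 11.3, 10.1 to 14.2, 8.84 to 13.8 and 9.01 to 10.98 CPM, with 0, 1 and 0 of 3 tested markers called against DMSO under the 3 treatments. Of the 4 tested B cell markers, 4 were higher with DSHN+GW3965 (3 after the exon length correction), 3 with GW3965 and 2 with DSHN. In these comparisons 0 of them were lower. Among all tested genes, 31.9% were higher and 32.9% lower with DSHN+GW3965, 23.6% and 23% with GW3965, and 14.1% and 14.8% with DSHN. The part of these lists in the Cxcr4 result was not tested.

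Direct comparison of the compounds showed 3 of the 5 members lower with GW3965 than with DSHN (8.82% of all tested genes were lower) and 0 higher (8.3% of all genes). The 3 were Ccr3, Ccr1 and Cx3cr1, each without overlap of the libraries. Ccr2 and Cxcr4 were not called, with intervals of -0.08 to 0.27 and -0.13 to 0.30. The compounds were used at different doses.

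Adding DSHN to GW3965 raised Ccr1 and, by a smaller margin, Cx3cr1, and did not move Ccr2, Ccr3 or Cxcr4 past the threshold. Of the members, 2 were called higher in DSHN+GW3965 than in GW3965 (28.3% of all genes were higher) and 0 lower (29.5% of all genes). Ccr1 rose to 19.8 CPM in DSHN+GW3965, against 13.9 CPM in GW3965 (log2 fold change 0.51, SE 0.08, adjusted p = 5.73e-06), with no overlap. For Cx3cr1 the difference was 0.17 (SE 0.06, adjusted p = 0.0148) with overlapping libraries, and without GW3965 replicate 2 it was 0.13 (adjusted p = 0.0501). Ccr3 had 0.08 (95% confidence interval -0.11 to 0.28, adjusted p = 0.466). Ccr2 had 0.13 (interval -0.04 to 0.30, adjusted p = 0.189), and 0.22 (adjusted p = 0.0272) with the exon length correction. Cxcr4 had 0.20 (interval -0.01 to 0.42, adjusted p = 0.0893). The value was called with total counts only (0.26, adjusted p = 0.0245), with no filter (adjusted p = 0.000491) and with the replicate block (0.21, adjusted p = 0.00831). It was also called without DSHN+GW3965 replicate 4 (0.26, adjusted p = 0.0451), without GW3965 replicate 1 (0.25, adjusted p = 0.0461) or without GW3965 replicate 3 (0.26, adjusted p = 0.0391).

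Adding GW3965 to DSHN lowered Ccr3 and Cx3cr1 further and raised Ccr2 and Cxcr4 slightly. In DSHN+GW3965 against DSHN, 2 members were lower (29.5% of all genes) and 2 higher (28.6% of all genes). Ccr3 differed by -0.83 on the log2 scale (SE 0.09, adjusted p = 7.73e-09) and Cx3cr1 by -0.46 (SE 0.06, adjusted p = 1.26e-07), neither with overlapping libraries. The rises overlapped between libraries. Ccr2 was higher by 0.23 (SE 0.08, adjusted p = 0.0233), by 0.17 without DSHN replicate 1 (adjusted p = 0.0803) and by 0.20 without DSHN+GW3965 replicate 2 (adjusted p = 0.0621). Cxcr4 was higher by 0.29 (SE 0.10, adjusted p = 0.0172), by 0.23 without DSHN+GW3965 replicate 3 (adjusted p = 0.0646) and by 0.25 with the exon length correction (adjusted p = 0.053). Ccr1 had -0.17 (95% confidence interval -0.32 to -0.01, adjusted p = 0.0635). With the exon length correction it was -0.21 and called (adjusted p = 0.0182), as it was at -0.20 without DSHN+GW3965 replicate 4 (adjusted p = 0.0363) or replicate 5 (adjusted p = 0.0367).

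**Figure D2:**
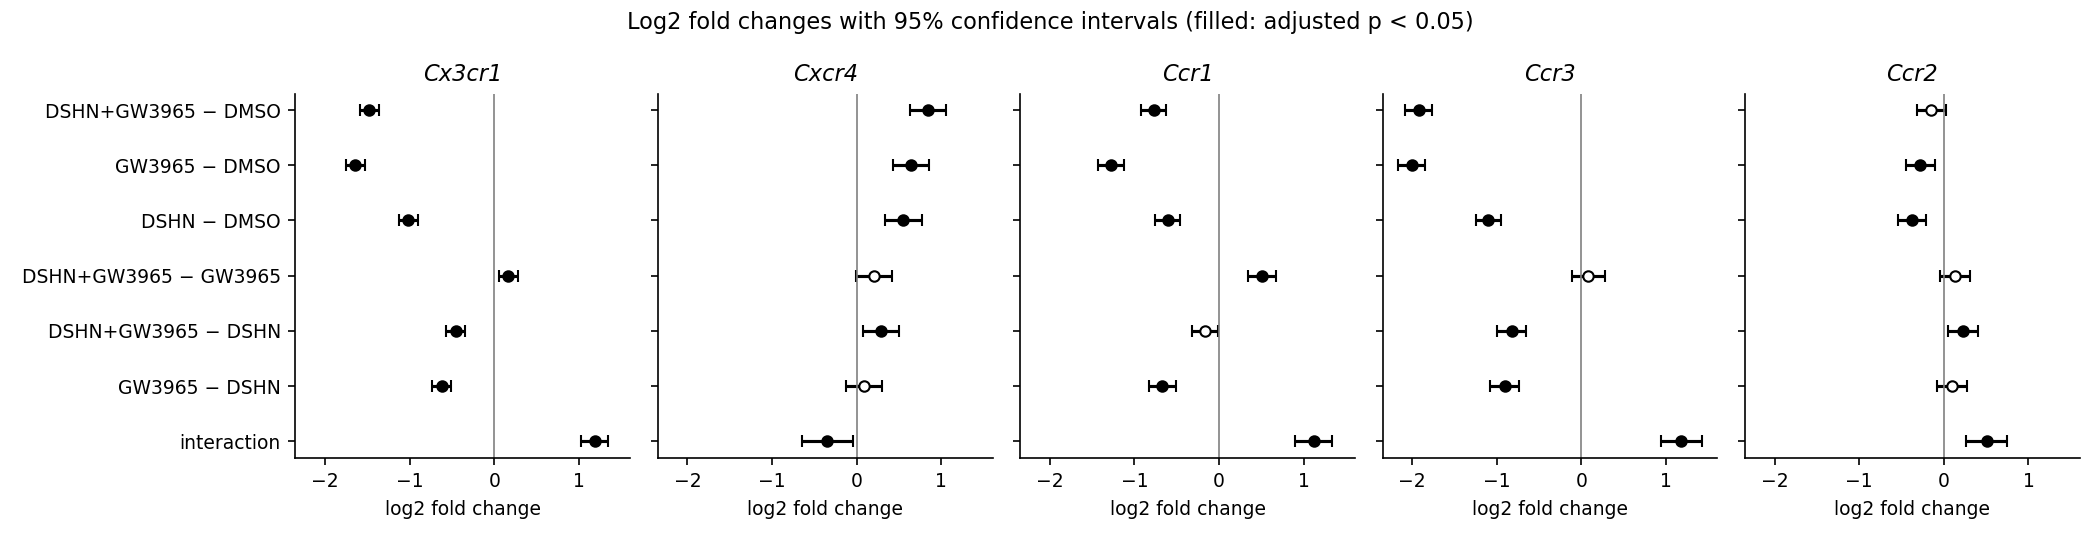
Log2 fold changes of the 5 receptor genes with 95% confidence intervals in the 6 pairwise comparisons and the interaction, filled where the adjusted p was under 0.05. Ccr3, Cx3cr1 and Ccr1 lie left of 0 against DMSO and right of 0 in the interaction, and Cxcr4 lies on the other side in each.

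The interaction, the DSHN effect in the presence of GW3965 minus the DSHN effect in its absence, tests whether the compounds added up on the log2 scale. All 5 members were called, beside 50.2% of all tested genes. It was positive for 4 of the 5 members, as for 23.7% of all tested genes, and negative for Cxcr4, as for 26.5% of all genes. Cx3cr1 had 1.18 (SE 0.08, adjusted p = 3.74e-11), Ccr3 1.18 (SE 0.12, adjusted p = 1.81e-08), Ccr1 1.12 (SE 0.11, adjusted p = 9.98e-09) and Ccr2 0.51 (SE 0.12, adjusted p = 0.000834). For Ccr3 the separate effects of DSHN and GW3965 sum to -3.11, and DSHN+GW3965 measured -1.93. For Cx3cr1 the sum is -2.66 beside -1.48 measured, and for Ccr1 -1.89 beside -0.77. Each fall under DSHN+GW3965 was therefore smaller than the sum of the separate falls. Cxcr4 had -0.35 (SE 0.15, adjusted p = 0.0498), with a sum of 1.19 beside 0.84 measured. That call sat at the threshold: it was lost in 15 of the 20 fits that left out 1 library, in which the value lay between -0.42 and -0.27. The call was also lost with DESeq2 size factors (adjusted p = 0.050004), total counts only (-0.27), the stricter filter and the DESeq2 test. Among these 4 alternatives the adjusted p reached 0.11. Its adjusted p was lower with the exon length correction (-0.40, adjusted p = 0.0281) and with the replicate block (-0.35, adjusted p = 0.00283). The block assumes that equal replicate numbers pair libraries, which the labels do not say. Between same-numbered libraries, r was positive in 3 of the 15 pairs with a DSHN library.

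The order of the receptor genes by level differed between the treatments. With DMSO, Cx3cr1 was first of 23 listed chemokine receptor genes by CPM per kb of exon (99.8 ± 5.12), ahead of Cxcr4 (36.4 ± 6.70). In each other group Cxcr4 was first, with 65.3 ± 7.27 with DSHN+GW3965, 56.7 ± 8.80 with GW3965 and 53.4 ± 4.42 with DSHN. Cx3cr1 made up 29.4% of the summed CPM per kb of the 23 genes with DSHN+GW3965, 29.6% with GW3965 and 39.2% with DSHN, against 59.5% with DMSO. Cxcr4 made up 53.5%, 52.5% and 42.5% in the same order, against 21.7% with DMSO. The sum itself was lower in the treated groups, at 122, 108 and 126 CPM per kb against 168 with DMSO. Part of the larger Cxcr4 share therefore comes from the smaller sum. Under DSHN the 2 leading genes lay close, with Cx3cr1 at 49.3 ± 3.68 and Cxcr4 at 53.4 ± 4.42 CPM per kb, within their spread. Ccr1 (7.00, 4.90, 7.84 and 11.97 CPM per kb in the order of groups used), Ccr3 (2.17, 2.04, 3.83 and 8.22) and Ccr2 (3.62, 3.30, 3.10 and 3.99) were far lower. Ccr3 stood above Ccr2 with DMSO, and below it in both groups that had received GW3965.

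Of the 18 other listed receptor genes, 3 had enough counts for the test: Cxcr3, Ccrl2 and Ccr1l1. The remaining 15 had at most 14 counts in any library, and Ackr1 had none. Cxcr3, the receptor of the interferon-induced chemokines, was higher with GW3965 (0.52, SE 0.12) and with DSHN+GW3965 (0.39, SE 0.12), the second of which the exon length correction ended (0.17, adjusted p = 0.249). Ccrl2, which presents chemerin rather than signalling, was higher with GW3965 (0.29, SE 0.10). That call was lost with total counts only (0.23, adjusted p = 0.0629) and without DMSO replicate 3, 4 or 5 or GW3965 replicate 1 or 3, the last 2 giving 0.20 (adjusted p = 0.121) and 0.25 (adjusted p = 0.075). Ccr1l1 was lower with DSHN+GW3965 (-0.83, SE 0.28), on 8 to 15 counts per library with DSHN+GW3965 and 16 to 31 with DMSO, and its libraries overlapped. Without DMSO replicate 2 that value was -0.67 (adjusted p = 0.0507).

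**Figure D3:**
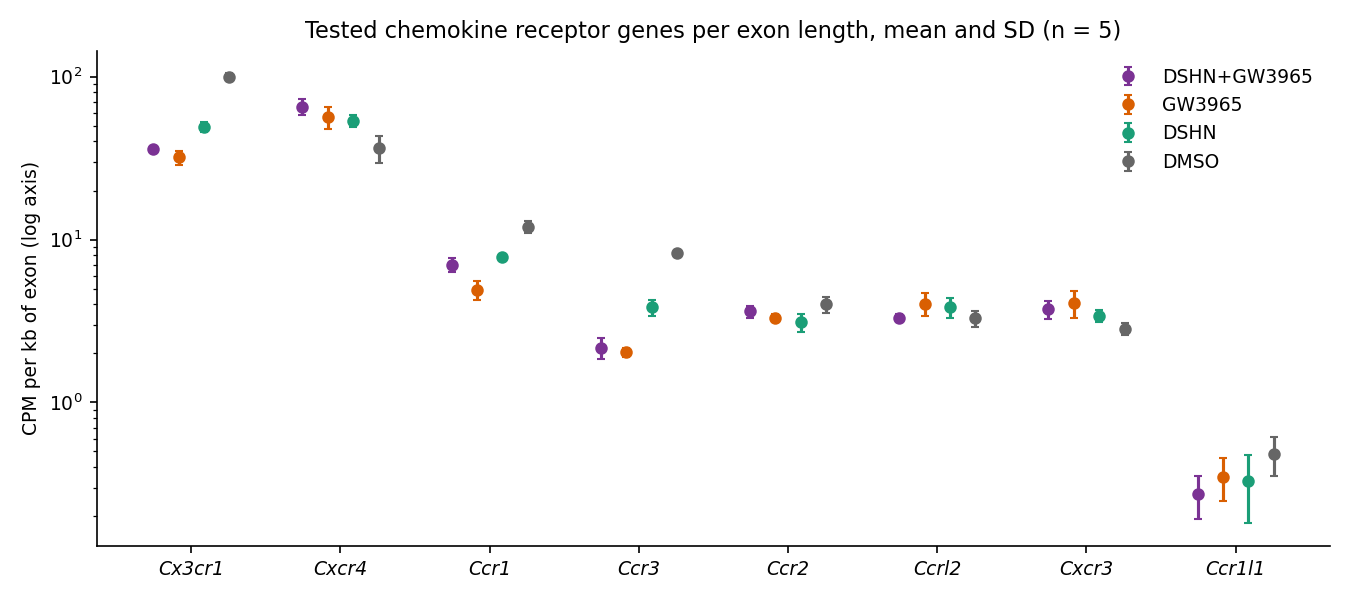
CPM per kb of exon, on a log axis, of the 8 tested chemokine receptor genes on the list as mean and SD of 5 libraries per treatment. Cx3cr1 leads with DMSO at 99.8, and Cxcr4 leads in each treated group at 53.4 to 65.3.

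Among the ligands of the 5 receptors, the CCR2 ligands fell together and the CXCR4 ligand rose. Of 15 listed ligand genes 11 were tested. DSHN+GW3965 against DMSO had 3 higher and 4 lower (2 and 5 with the exon length correction), where 31.9% of all tested genes were higher and 32.9% lower. GW3965 had 1 higher and 6 lower, where 23.6% and 23% of all genes were. DSHN had 2 higher and 5 lower, where 14.1% and 14.8% of all genes were. The list's median log2 fold change was 0.08 (-0.14 corrected), -0.43 and -0.18 in these comparisons, beside 0.01, 0.008 and 0.002 over all tested genes.

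Ccl2, the main monocyte attractant, averaged 26.7 ± 8.38 CPM with DSHN+GW3965, 17.3 ± 8.04 with GW3965, 26.6 ± 4.44 with DSHN and 79.6 ± 30.7 with DMSO (SD, n = 5 each). Its log2 fold change against DMSO was -1.58 (SE 0.24), -2.18 (SE 0.25) and -1.57 (SE 0.24), and no treated library reached the lowest DMSO library, 42.7 CPM. Ccl7 and Ccl12, the other tested CCR2 ligand genes, fell as well, from lower levels. Ccl7 had -1.57 (SE 0.30), -2.01 (SE 0.31) and -1.87 (SE 0.30), and Ccl12 -1.12 (SE 0.21), -1.48 (SE 0.22) and -1.46 (SE 0.22). Ccl7 overlapped between DMSO and the groups with GW3965, and Ccl12 between DMSO and DSHN+GW3965. All 3 had a positive interaction of 1.82 to 2.31.

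Cxcl12 averaged 38.5 ± 5.32 CPM with DSHN+GW3965, 47.3 ± 6.71 with GW3965, 49.7 ± 9.44 with DSHN and 25.7 ± 3.02 with DMSO (SD, n = 5 each), and every treated library lay above every DMSO library. It rose by 0.58 (SE 0.12, and 0.80 after the exon length correction), 0.88 (SE 0.11) and 0.95 (SE 0.11) on the log2 scale. Its interaction was -1.24 (SE 0.16, adjusted p = 5.9e-07), of the same sign as that of Cxcr4. Stromal cells are a usual source of CXCL12. The 10 stromal markers, 9 of them tested and none at 0, summed to 1913 to 2333 CPM with DSHN+GW3965, 2551 to 3340 CPM with GW3965, 2439 to 3098 CPM with DSHN, and between 2294 and 2890 CPM with DMSO. Against DMSO, 7 of the 9 were lower with DSHN+GW3965 (4 after the exon length correction), where 32.9% of all tested genes were. With GW3965, 2 were higher, where 23.6% of all genes were. With DSHN 0 were called, beside 28.9% of all genes. The part of the stromal markers in the Cxcl12 result was not tested.

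Cx3cl1, the ligand of CX3CR1, was near the floor of detection, with 11 to 24 counts per library with DSHN+GW3965, 22 to 31 with GW3965, 34 to 58 with DSHN and 45 to 60 with DMSO. It fell with DSHN+GW3965 (-1.33, SE 0.20) and GW3965 (-0.97, SE 0.18), and had -0.30 (SE 0.17, adjusted p = 0.189) with DSHN. The CCR1 ligands Ccl6 and Ccl9 were far more abundant, and the CCR1 ligands did not all move one way. Ccl6 averaged 447 ± 18.0 CPM with DSHN+GW3965, 270 ± 8.13 with GW3965, 358 ± 19.9 with DSHN and 279 ± 24.4 with DMSO (SD, n = 5 each), a rise of 0.68 (SE 0.05, and 0.42 after the exon length correction) with DSHN+GW3965 and 0.36 (SE 0.05) with DSHN. Ccl9 fell with GW3965 (-0.43, SE 0.04) and DSHN (-0.18, SE 0.04), and had 0.08 (adjusted p = 0.122) with DSHN+GW3965. Ccl3 rose with DSHN+GW3965 (0.54, SE 0.07), a call that the exon length correction ended (0.14, adjusted p = 0.0833). Ccl4 fell with GW3965 (-0.57, SE 0.11) and DSHN (-0.53, SE 0.11), and with DSHN+GW3965 its value of -0.19 (adjusted p = 0.12) was -0.62 and called after the correction. Ccl5 was not called against DMSO. Of the CCR3 ligands, Ccl11 had no count in any library, Ccl26 at most 1 and Ccl28 at most 5, and Ccl24 had 4 to 14 counts per library with no call against DMSO.

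**Figure D4:**
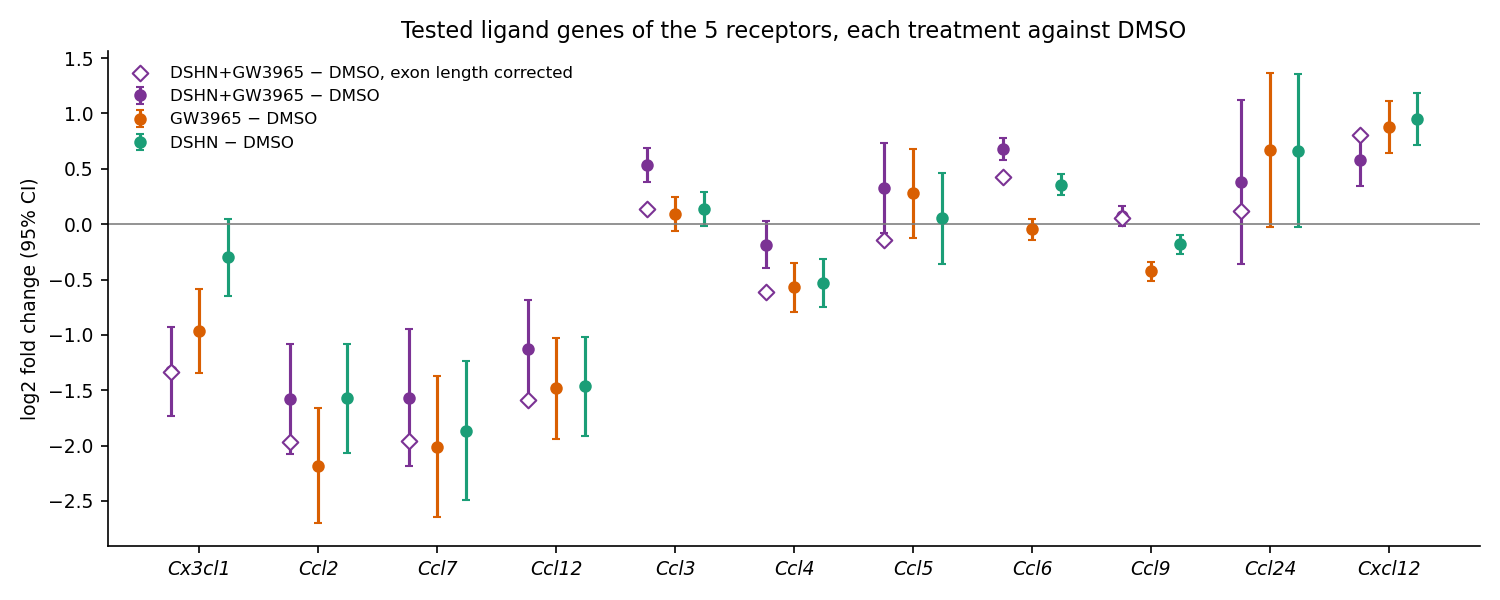
Log2 fold changes with 95% confidence intervals of the 11 tested ligand genes against DMSO, with open diamonds for DSHN+GW3965 after the exon length correction. Ccl2, Ccl7 and Ccl12 lie below 0 under every treatment and Cxcl12 above 0, while Ccl3 and Ccl4 shift with the correction.

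Downstream of these receptors, RGS proteins switch G proteins off, and Rgs1 fell under every treatment. In the list of 15 receptor kinases, arrestins and RGS genes, 3 rose and 5 fell with DSHN+GW3965, 3 rose and 5 fell with GW3965, and 1 rose and 3 fell with DSHN, with a median log2 fold change of -0.05, -0.09 and -0.05. Over all tested genes, 64.8%, 46.5% and 28.9% changed, so these counts are near the background. With the exon length correction, 3 rose and 6 fell with DSHN+GW3965 (58.4% of all genes changed), with a median of -0.004. Rgs1 averaged 37.0 ± 5.76 CPM with DSHN+GW3965, 20.2 ± 5.17 with GW3965, 32.6 ± 4.18 with DSHN and 86.6 ± 12.9 with DMSO (SD, n = 5 each). Its log2 fold changes against DMSO were -1.23 (SE 0.12), -2.09 (SE 0.13) and -1.40 (SE 0.12), and its interaction was 2.26 (SE 0.18, adjusted p = 6.72e-10). Rgs16 was lower by -0.65, -0.81 and -0.79 and Rgs10 higher by 0.60 (0.36 after the exon length correction), 0.34 and 0.29. Rgs2 was higher with DSHN+GW3965 (0.21) and GW3965 (0.17) and lower with DSHN (-0.21).

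The 14 G protein subunit genes had 6 higher and 6 lower with DSHN+GW3965 (5 and 3 with the exon length correction), 3 and 3 with GW3965, and 2 and 2 with DSHN. Of all tested genes, 31.9% were higher and 32.9% lower with DSHN+GW3965 (58.4% called either way after the correction), and 46.5% and 28.9% were called with GW3965 and DSHN. Their median log2 fold change was -0.02, 0.02 and 0.04. Gng2, a gamma subunit, was higher in all 3 comparisons (0.31, 0.34 and 0.34), and Gnb4, a beta subunit, lower (-0.32, -0.29 and -0.20), the first of these -0.07 and not called after the correction. Gna15 was lower (-0.17, -0.40 and -0.18), with -0.29 for the first after the correction and no call for the third without a filter (adjusted p = 0.0637). Gna13 had -0.17 with DSHN+GW3965, which turned to 0.03 after the correction. It had 0.08 with GW3965, a call lost in 12 of the 20 fits without 1 library, and 0.05 with DSHN.

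Of 20 effectors of chemotaxis, 5 rose and 11 fell with DSHN+GW3965, 6 rose and 8 fell with GW3965, and 3 rose and 5 fell with DSHN, with a median log2 fold change of -0.12, -0.06 and -0.05. Over all tested genes, 31.9% rose and 32.9% fell with DSHN+GW3965, 23.6% and 23% with GW3965, and 14.1% and 14.8% with DSHN. After the exon length correction, 5 effectors rose and 12 fell with DSHN+GW3965 (58.4% of all genes changed), with a median of -0.19. Dock2, which activates the GTPase Rac, averaged 240 ± 14.2 CPM with DSHN+GW3965, 381 ± 26.2 with GW3965, 391 ± 35.9 with DSHN and 405 ± 19.1 with DMSO (SD, n = 5 each). It fell with DSHN+GW3965 (-0.75, SE 0.05, and -0.55 after the exon length correction), and had -0.09 (adjusted p = 0.195) with GW3965 and -0.05 (adjusted p = 0.517) with DSHN. Pik3cg, the G protein-coupled PI3 kinase, fell with DSHN+GW3965 (-0.62, and -0.37 corrected) and GW3965 (-0.21). Ptk2b, a focal adhesion kinase, fell in all 3 comparisons (-0.43, -0.40 and -0.18), and Cotl1, which binds F-actin, rose with DSHN+GW3965 (0.42, and 0.20 corrected) and GW3965 (0.31). Its 0.09 with DSHN was called, and lost the call with the exon length correction (0.0737, adjusted p = 0.0511), with total counts only, with no filter and in 11 of the 20 fits without 1 library.

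Receptors for other attractants were mixed as well, with 2 of 12 tested higher and 3 lower with DSHN+GW3965, 5 and 3 with GW3965, and 4 and 3 with DSHN, and a median log2 fold change of -0.03, 0.08 and -0.04. The 5 of 12 called with DSHN+GW3965 are a smaller share than the 64.8% of all tested genes. With GW3965 and DSHN, 46.5% and 28.9% of all genes were called. The exon length correction gave 3 higher and 3 lower with DSHN+GW3965 (58.4% of all genes called), with a median of -0.017. C5ar1, the receptor of complement C5a, had -0.29 (SE 0.07), -0.70 (SE 0.07) and -0.48 (SE 0.07) and an interaction of 0.89 (SE 0.10). C3ar1 fell in all 3 comparisons (-0.51, -0.24 and -0.33), and so did Gpr183, an oxysterol-sensing guidance receptor (-0.46, -0.57 and -0.28). P2ry12, an ADP receptor known from microglia, rose by 0.34, 0.81 and 0.45 on the log2 scale and had an interaction of -0.92 (SE 0.11).

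Across the 20 libraries Cx3cr1, Ccr1 and Ccr3 varied together, with Pearson's r of log2 CPM of 0.98 for Cx3cr1 and Ccr3, 0.93 for Cx3cr1 and Ccr1 and 0.91 for Ccr1 and Ccr3. Cxcr4 ran against them (r = -0.82 with Cx3cr1, -0.85 with Ccr3 and -0.74 with Ccr1), and Ccr2 followed none closely (r between -0.16 and 0.43). These coefficients describe 20 libraries in 4 treatments and mostly restate the treatment means. After the treatment means were taken out, r was 0.29, 0.45 and 0.43 for the first 3 pairs, and -0.16, -0.53 and -0.63 for Cxcr4 with Cx3cr1, Ccr3 and Ccr1.

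Among 9820 genes that averaged 5 CPM or more, the ones most like Cx3cr1 over the 20 libraries were Stap1 (r = 0.98), Ccr3 (0.98), Adam8 (0.97) and Gcnt1 (0.97). Those most like Ccr3 were Adam8 (0.98), Cx3cr1 (0.98), Stap1 (0.97) and Cdk18 (0.97), so Stap1, an adaptor protein gene, and Adam8, a metalloprotease gene, stood in both sets. With the treatment means taken out, r fell to between 0.20 and 0.51 in the Cx3cr1 set and to between 0.29 and 0.59 in the Ccr3 set. For Ccr1 they were E2f8 (0.97), Raet1d (0.97), Pilra (0.97) and Mmp13 (0.97), and with the treatment means taken out r was 0.88, 0.79, 0.77 and 0.36. For Cxcr4 they were Ypel3 (0.98), Rilpl2 (0.98), Mkrn1 (0.97) and Rnf167 (0.97). In this set r stayed at 0.89 to 0.93 with the treatment means taken out. Ccr2 had the weakest matches, with Adra2a at 0.77 and Pmepa1, Clec12a and Rbm43 at 0.73, and between 0.30 and 0.63 with the treatment means taken out.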

How the data were processed

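The deposited counts are raw reads per gene, with 1 file per library, and were used unchanged. Per the file headers, the authors made them with featureCounts v2.0.0 from STAR alignments to GRCm39 and RefSeq genes, naming no option for strand or multiple alignments. Per the labels' protocols, libraries were stranded mRNA (Kapa). Coordinates and exon lengths come from the count files. A RefSeq table named 44749 of the 46318 GeneIDs, and the other 1569 held 0.474% of counts.

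The test was the quasi-likelihood test of edgeR 4.0.16 in R 4.3.3 on the 13307 genes that passed filterByExpr. It used TMM scaling, a mean for each treatment, all 20 libraries and no replicate block. Within each comparison, p-values over all tested genes received the Benjamini-Hochberg adjustment, and genes under 0.05 were called. The biological coefficient of variation was 0.0536. CPM used TMM factors, log2 CPM a prior count of 2, and intervals are at 95%. Exon length was corrected through offsets per library, from a spline of 5 degrees of freedom. Slopes on exon length were compared by two-sided exact permutation. The members and lists (196 entries, all matched) were chosen with earlier results of these data known, so no list was tested. Genes named beside the members were the tested receptor and ligand genes and the 4 most like each member. Up to 4 with the smallest adjusted p were named from each list of signalling genes, effectors and other attractant receptors. Cell type markers were also named, outside that choice. Apart from Ccr3, single markers were not followed through the alternative fits, and their lists were followed only with the exon length correction.

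The test was tried on counts simulated for all 20 libraries from each gene's mean level over all of them. Genes were changed in the DSHN libraries only, and DSHN was compared with DMSO (13178 genes, 50 changed at each size). Every gene had the same biological coefficient of variation, and no exon length trend or replicate pairing was put in. The simulation therefore cannot show how the test does where these are present. The test found 36 genes changed 1.25-fold, 42 changed 1.5-fold, 50 changed 2-fold and 49 changed 4-fold. It also called 6 genes that had not been changed. The alternatives were 2 other scalings (the size factors of DESeq2, or library totals), 2 other filters (none, or 100 counts and 1 CPM in 5 libraries), 2 other tests (DESeq2 1.42.0 and voom of limma 3.58.1), fits of the compared groups alone, a replicate block, the exon length correction with or without that block, and each library left out. Amino acid sequences are not used here, and some genes are not reported here.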

Additional observations from a re-analysis of the deposited data

Results flagged for a closer look

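For all 5 receptor genes the DSHN effect in the presence of GW3965 differed from that in its absence by edgeR's quasi-likelihood test. The differences, on the log2 scale, were 1.18 for Cx3cr1, 1.12 for Ccr1, 0.51 for Ccr2, 1.18 for Ccr3 and -0.35 for Cxcr4. Of all tested genes, 50.2% had such a difference. The Cxcr4 call sat at the threshold (adjusted p = 0.0498). It was lost in 15 of the 20 fits that left out 1 library and in 4 of the other alternatives.

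In 76 sets of 5 libraries (the tested receptor and ligand genes in 4 treatments), 4 had a library far from the other 4, and chance gives this in about 1 in 20 sets. Cx3cl1 had 0.591 CPM in DSHN+GW3965 replicate 3, below the rest of its group, and Ccl24 had 0.698 CPM in the same library, above the rest of its group. Ccl3 had 22.1 CPM in GW3965 replicate 1, above its group, and Ccl6 had 393 CPM in DSHN replicate 3, above its group. None of the 20 sets of the 5 receptor genes had such a library.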

How the results depend on the processing

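No receptor gene changed direction between the edgeR fit and any alternative. The count of members with a negative interaction was 1, and it was 0 with DESeq2 size factors, total counts only, the stricter filter and the DESeq2 test, and 0 to 1 over the fits that left out 1 library. Members higher in DSHN+GW3965 than in DSHN numbered 2, and 1 with the exon length correction (1 to 2 without 1 library). Members higher in DSHN+GW3965 than in GW3965 numbered 2, and 4 with the exon length correction and replicate block together (1 to 3 without 1 library). The counts over all genes stayed within 1.5 times. The labels do not say what replicate numbers share, so libraries were not treated as paired. Same-numbered libraries had r between -0.205 and 0.247, over 0.1 in 10 of 30 pairs, beside 20 of 120 pairs with different numbers. As a hint of pairing in the data, 13 of 20 libraries correlated best with their own number. For same numbers, r was positive in all 15 pairs without a DSHN library (0.0268 to 0.247), and in 3 of the 15 with one. With the replicate block, Cxcr4 in DSHN+GW3965 against GW3965 was 0.21 (adjusted p = 0.00831) and Ccr1 in DSHN+GW3965 against DSHN was -0.17 (adjusted p = 0.0125), both then called. With the exon length correction, alone or with the block added, Gna13 turned to 0.0262 and 0.0259 in DSHN+GW3965 against DMSO, Cotl1 to -0.10 in both against GW3965, Ccl4 to -0.0344 and -0.0403 against DSHN, and Gnb4 to 0.12 in both against DSHN. The cause was not tested. Ccr3 rests on the fewest counts, 116 to 668 per library.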
